A study of Homo sapiens with 16 samples.

Results

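Collagens are the triple-helical proteins of the extracellular matrix, and the genes described here are the 34 protein-coding collagen genes with a row in both deposited expression tables, of 44 in the GENCODE 29 annotation and of 26410 genes in all. Membership was set by name, as symbols made of COL, a type number, A and a chain number, with earlier results of these data known. The 34 genes were grouped into 9 fibrillar, 4 network and 21 other collagens. A further 10 were not analysed here (COL4A3, COL4A4, COL4A5, COL4A6, COL5A3, COL10A1, COL11A2, COL20A1, COL21A1 and COL25A1).

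RNA was sequenced from SH-SY5Y, a human neuroblastoma cell line, in 16 libraries. The 4 groups were untreated TRPM2 KO, untreated Scr, doxorubicin-treated TRPM2 KO and doxorubicin-treated Scr, each with 2 single-cell clones (KO11 and KO28, or Scr13 and Scr16) and 2 replicates per clone. KO clones were made with Cas9 and a guide RNA against TRPM2, a cation channel gene, Scr clones with a scrambled guide, and both received the donor vector with GFP and puromycin resistance and were grown under puromycin. Doxorubicin, a chemotherapy drug that damages DNA, was given at 0.3 µM for 24 h according to the sample labels, while the design text of the series gives 3 µM. Since a genotype is represented by 2 clones, genotype and clone history cannot be told apart, and p-values measure the spread between these libraries, which share a clone in pairs. Values are library-size-scaled reads (CPM) adjusted by the authors' normalization factor (normalized CPM), and libraries held 10481177 to 25086085 reads with a median of 16037366.5.

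Fibrillar collagens, such as types I, III and V, assemble into the banded fibrils of connective tissue and are made mainly by fibroblasts and other mesenchymal cells. Network collagens include type IV, whose chains form the sheet of the basement membrane. The remaining collagens include the beaded filaments of type VI, collagens that sit on fibril surfaces and collagens that span the cell membrane. Neuroblastoma cell lines are known to hold adrenergic cells, which resemble sympathetic neuron precursors, and mesenchymal cells, which make more matrix.

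The targeted gene was examined first. Without treatment the normalized CPM of TRPM2 was 1.93 and 2.23 in KO11, 1.41 and 2.19 in KO28, 0.118 and 0.115 in Scr13, and 0 and 0 in Scr16. The untreated libraries labelled KO were all above the Scr libraries. TRPM2 passed the filter on low values through these libraries alone, so a difference was built into its being tested (log2 fold change 1.47 ± 0.27 (SE), limma adjusted p = 0.00154). After doxorubicin TRPM2 was at 1.22 and 1.83 in KO11, 1.37 and 0.658 in KO28, 0.0594 and 0.0631 in Scr13, and 1.33 and 0.390 in Scr16, and the groups overlapped. The study's methods state that the KO and Scr cells were authenticated by RT-PCR and Western blotting. According to the same methods, the edit removed the start of the TRPM2 coding sequence and shifted the reading frame of what remained. Reads were summed over the whole gene, what remained included, so the level of TRPM2 does not check the labels, and every direction below refers to the libraries as labelled. Adrenergic markers summed to between 8127 and 9592 normalized CPM over 12 genes in the 16 libraries, led by STMN2, a neuronal microtubule regulator gene (mean 1629). DBH and HAND2 followed (means 1585 and 1486), while TH, the tyrosine hydroxylase gene and a defining marker, was low (mean 0.328), and CHGA was at 26.4 in KO11 untreated replicate 2 and between 0.356 and 3.41 in the other libraries.

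Single libraries of the Scr clones stood apart in their collagen values. Scr13 untreated replicate 1 held 139 normalized CPM of COL3A1, the chain of type III collagen, and its replicate 2 held 10.8. The same library was higher than its replicate by 7.11-fold for COL5A1 and 5.49-fold for COL1A1, while 0.137% of all abundant genes differed by at least 4-fold between these replicates. COL4A1 was 2.52-fold higher there, which is below that threshold. Scr16 doxorubicin replicate 1, the library of lowest depth, held 83.9 of COL3A1 against 19.8 in its replicate and was also the Scr library with the highest TRPM2 value. In Scr13 untreated replicate 1, by contrast, TRPM2 was at 0.118, against 0.115 in its replicate. Replicate 1 exceeded replicate 2 in all 8 pairs of clone and treatment for COL3A1 (1.23- to 12.9-fold) and COL5A1 (1.17- to 7.11-fold). For the genes called among the fibrillar and type IV collagens, and for several markers, values without Scr13 untreated replicate 1 or Scr16 doxorubicin replicate 1 are given below. These libraries were singled out after their values were seen. Where such a library lay nearest those labelled KO, leaving it out widens the genotype difference by construction. The values without it are then no separate support, and calls gained that way follow from the choice.

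Collagen reads made up 0.0401% to 0.0945% of a library, and 95% of the collagen signal came from 10 genes. Per kilobase of exon, the order of mean levels over the 16 libraries was COL6A2 (30.1 normalized CPM per kb), COL6A1 (21.8), COL3A1 (16.7), COL18A1 (9.07), COL4A2 (3.90), COL4A1 (2.72) and COL5A1 (2.21). The order varied by group. COL3A1 was first in the untreated libraries labelled KO, at 25.7 normalized CPM per kb beside 22.5 for COL6A2, and was at 5.15 in Scr after doxorubicin, below COL18A1 at 10.9. The leading fibrillar, network and other genes per length were therefore COL3A1, COL4A2 and COL6A2. Of the 34 genes, 20 had a mean of at least 1 normalized CPM, 16 had reads in every library and 8 stayed under 1 normalized CPM in all of them. Type I collagen is normally built from the products of COL1A1 and COL1A2. Here COL1A2 was lower than COL1A1 in every library, at 0 to 0.440 times its level per length.

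The summed levels of the classes are plotted by library. The fibrillar sum was 254 ± 52.5 normalized CPM in the untreated libraries labelled KO and 87.5 ± 74.5 in Scr (SD, n = 4), and 282 ± 51.0 and 60.8 ± 43.7 after doxorubicin. The network sum was 170.5 ± 8.35 in the untreated libraries labelled KO and 94.4 ± 19.8 in Scr, and 130.1 ± 18.0 and 73.1 ± 6.53 after doxorubicin. The sum of the other collagens lay at 315 ± 23.4 and 304 ± 25.3 without treatment and at 472 ± 43.4 and 465 ± 36.9 after the drug. Without Scr13 untreated replicate 1 the untreated Scr fibrillar mean was 51.4 ± 22.3, and without Scr16 doxorubicin replicate 1 the treated one was 39.8 ± 14.9 (SD, n = 3). Fibrillar sums did not overlap between genotypes after doxorubicin and overlapped without treatment, where Scr13 replicate 1 (196) was above KO11 replicate 2 (189). Network sums did not overlap between genotypes in either treatment, but overlapped between treatments in Scr. Sums of the other collagens overlapped between genotypes and not between treatments. The sums themselves were not tested. Without COL3A1 the untreated fibrillar sums were 78.9 ± 15.02 and 32.1 ± 17.4.

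**Figure D1:**
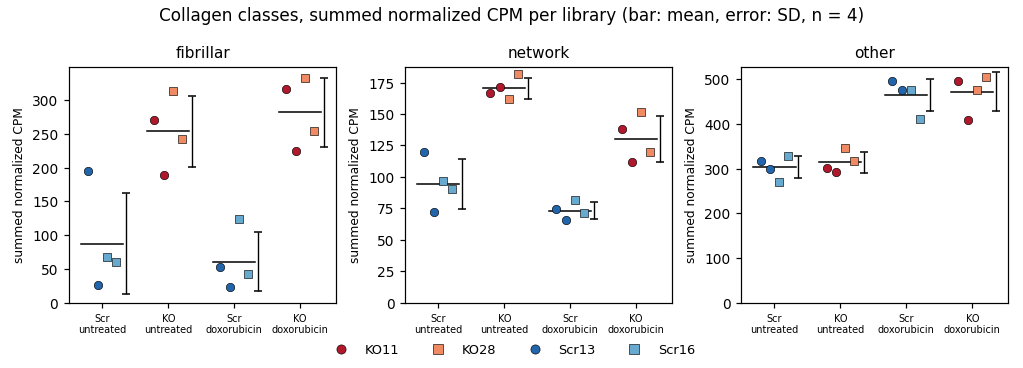
Summed normalized CPM of the fibrillar, network and other collagen genes (vertical axes) in each library of the 4 groups, with the group mean (line) and SD (error bar, n = 4). Fibrillar and network group means were higher in the libraries labelled KO, with the fibrillar sum of Scr13 untreated replicate 1 at 196 above KO11 untreated replicate 2 at 189, and the other collagens were higher after doxorubicin in all libraries.

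The first comparison asked which collagen genes differed between TRPM2 KO and Scr cells without treatment. Of the 34 genes, 17 passed the filter on low values (1 normalized CPM or more in 4 or more libraries of 8), 7 were higher in the libraries labelled KO and 1 was lower (limma, adjusted p under 0.05 over 14364 genes). Over all genes tested, 4.84% were called, 2.3% as higher and 2.54% as lower. The calls comprised 4 of 7 fibrillar, 2 of 2 network and 2 of 8 other genes. The median log2 fold change of the 17 was 0.61, beside -0.01 for all genes. COL27A1, not called there, was among the 17 through the libraries labelled KO alone. After doxorubicin 19 collagen genes passed the filter, 9 were higher and 0 lower by limma (12 of 19 had an unadjusted p under 0.05). Here 8.69% of all 14572 genes were called, 4.52% as higher and 4.17% as lower. These were 5 of 6 fibrillar, 2 of 3 network and 2 of 10 other genes, including COL13A1, which passed the filter through the libraries labelled KO alone. The genes COL1A1, COL3A1, COL5A1, COL11A1, COL4A1 and COL4A2 were higher in both treatments. With 1 clone left out, fewer libraries remained. Without KO28 the untreated calls lost were (limma adjusted p) COL3A1 (0.0639), COL1A1 (0.128), COL4A1 (0.0643), COL5A1 (0.250), COL6A3 (0.120), without Scr16 they were COL3A1 (0.0584), COL5A1 (0.209), COL6A3 (0.304), and without Scr13 COL9A2 (0.0640) was the only one lost. After doxorubicin COL1A1, COL7A1 and COL27A1 were the calls lost without 1 of the clones, COL1A1 only without KO28 (0.0720). With no filter on low values, the untreated calls that remained were COL11A1 and COL4A2, and COL1A1, COL7A1 and COL27A1 were lost after doxorubicin. In a bulk sample, fewer cells of a type and less RNA per cell cannot be told apart.

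COL3A1 (chr2:188974320-189012746, GRCh38, plus strand) was the most abundant fibrillar gene. Without treatment it was at 194 and 126 in KO11, 215 and 165 in KO28, 139 and 10.8 in Scr13, and 41.1 and 30.3 in Scr16. The groups overlapped because Scr13 replicate 1 was above KO11 replicate 2. The log2 fold change was 2.17 ± 0.42 (limma adjusted p = 0.00279, exact permutation p = 0.0571), and 2.79 without Scr13 replicate 1 (adjusted p = 3.12e-07). DESeq2 on the recovered reads of all 8 libraries did not call it (adjusted p = 0.171). After doxorubicin COL3A1 was at 214 and 154 in KO11, 215 and 174 in KO28, 29.6 and 6.88 in Scr13, and 83.9 and 19.8 in Scr16, with no overlap. The log2 fold change was 2.88 ± 0.39 (adjusted p = 2.83e-05), and 3.46 without Scr16 replicate 1.

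COL5A1 (chr9:134641774-134844843, plus strand) encodes a type V chain, which is built into fibrils and limits their width. Its untreated values were 28.7 and 24.6 in KO11, 42.5 and 32.8 in KO28, 32.3 and 4.55 in Scr13, and 13.2 and 11.3 in Scr16. Again only Scr13 replicate 1 reached the range of the libraries labelled KO. The log2 fold change was 1.28 ± 0.33 (adjusted p = 0.0245) and rose to 1.72 without that library (adjusted p = 8.13e-05). The call was lost without KO28 replicate 1, KO28 replicate 2, Scr13 replicate 2, Scr16 replicate 1 or Scr16 replicate 2 (adjusted p = 0.133, 0.0541, 0.0617, 0.0562 and 0.0670), and by edgeR (0.120) and DESeq2 (0.373). With doxorubicin the values were 44.6 and 28.4 in KO11, 53.04 and 35.4 in KO28, 9.33 and 4.54 in Scr13, and 21.1 and 8.37 in Scr16 and the groups were separate. The log2 fold change was then 1.95 ± 0.28 (adjusted p = 4.69e-05), and 2.31 without Scr16 replicate 1. COL5A2, the partner chain, was 6.09 ± 2.22 in the untreated libraries labelled KO and 4.46 ± 0.765 in Scr (adjusted p = 0.583, 95% interval of the log2 difference -0.15 to 0.82).

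COL11A1 (chr1:102876467-103108872, minus strand), a chain of the type XI collagen found in the core of thin fibrils, was at 23.7 and 18.5 in KO11, 25.1 and 9.77 in KO28, 6.49 and 2.82 in Scr13, and 2.76 and 6.53 in Scr16 without treatment. All 4 libraries labelled KO were above all 4 Scr libraries (log2 fold change 1.85 ± 0.28, adjusted p = 0.000190, and 2.01 without Scr13 replicate 1). After the drug its values were 32.2 and 27.1 in KO11, 37.7 and 22.5 in KO28, 1.90 and 1.83 in Scr13, and 8.27 and 3.64 in Scr16. The groups were again separate, with means of 29.9 ± 6.56 against 3.91 ± 3.02 (SD, n = 4). The log2 fold change was 2.81 ± 0.29 (adjusted p = 6.73e-07), and 3.17 without Scr16 replicate 1.

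COL1A1 (chr17:50183289-50201632, minus strand), the major chain of type I collagen, was at 14.4 and 10.5 in KO11, 21.9 and 20.7 in KO28, 9.80 and 1.78 in Scr13, and 4.60 and 6.82 in Scr16 without treatment. No Scr library reached the lowest library labelled KO (log2 fold change 1.52 ± 0.31, adjusted p = 0.00406, and 1.80 without Scr13 replicate 1). In treated cells it was at 14.6 and 7.43 in KO11, 15.5 and 11.3 in KO28, 2.79 and 1.51 in Scr13, and 7.41 and 4.09 in Scr16. KO11 replicate 2 and Scr16 replicate 1 were nearly equal, and the log2 fold change was 1.51 ± 0.30 (adjusted p = 0.00185), or 1.81 without Scr16 replicate 1. The last fibrillar gene called was COL27A1, a fibrillar chain best known from cartilage, at 5.82 and 1.76 in KO11, 5.49 and 5.20 in KO28, 2.55 and 1.58 in Scr13, and 0.285 and 1.17 in Scr16 after doxorubicin. KO11 replicate 2 lay within the Scr range, and the call (log2 fold change 1.22 ± 0.34, adjusted p = 0.0239, and 0.95 without Scr16 replicate 1) was lost without KO11 replicate 1, KO28 replicate 1, KO28 replicate 2, Scr16 replicate 1 or Scr16 replicate 2 (adjusted p = 0.102, 0.0844, 0.0845, 0.0535 and 0.0551). The call was also lost by edgeR.

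**Figure D2:**
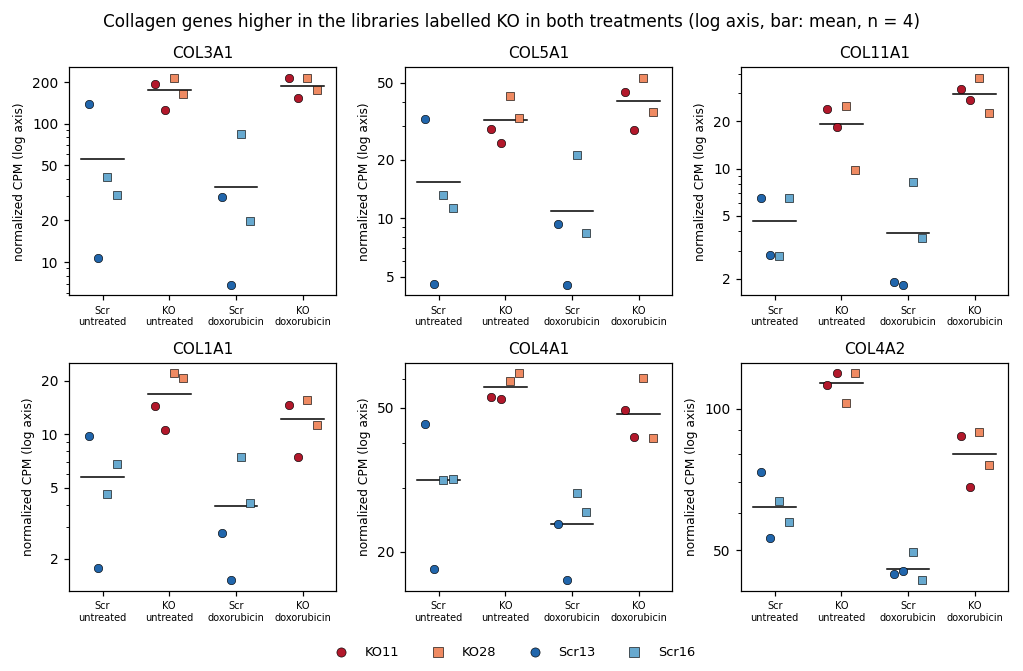
Normalized CPM (log axes) of the 6 collagen genes called higher in the libraries labelled KO in both treatments, by library and clone, with group means (lines, n = 4). COL4A1, COL4A2, COL11A1 and COL1A1 showed no overlap between genotypes in either treatment, whereas COL3A1 and COL5A1 overlapped without treatment through Scr13 replicate 1.

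The type IV genes COL4A1 and COL4A2 encode the chains that join in the common form of basement membrane collagen. They lie on opposite strands of chromosome 13 and are read outwards from neighbouring starts, and their GENCODE 29 models overlap. The stretch between the RefSeq starts (GRCh38.p14, chr13:110307158-110307283, written on the plus strand) is shown because both genes start at its ends and both were higher in the libraries labelled KO. Capitals mark the letters CCAAT and GGGCGG on either strand.
COL4A1 to COL4A2: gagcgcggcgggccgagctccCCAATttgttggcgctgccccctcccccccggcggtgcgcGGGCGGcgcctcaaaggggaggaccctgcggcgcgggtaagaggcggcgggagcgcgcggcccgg

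COL4A2 was at 112 and 119 in KO11, 103 and 119 in KO28, 73.3 and 53.2 in Scr13, and 63.7 and 57.4 in Scr16 without treatment and at 87.5 and 68.3 in KO11, 89.1 and 75.7 in KO28, 44.5 and 45.3 in Scr13, and 49.7 and 43.2 in Scr16 after doxorubicin. In either treatment all libraries labelled KO exceeded all Scr libraries. The log2 fold changes were 0.87 ± 0.0949 (adjusted p = 4.78e-06) and 0.79 ± 0.0992 (adjusted p = 1.03e-05), and both calls were kept in each of the 22 alternatives run for each of them. COL4A1 was at 53.4 and 52.9 in KO11, 59.3 and 62.1 in KO28, 45.1 and 17.9 in Scr13, and 31.7 and 31.7 in Scr16 without treatment and at 49.1 and 41.6 in KO11, 60.4 and 41.2 in KO28, 23.9 and 16.7 in Scr13, and 28.99 and 25.8 in Scr16 after doxorubicin, also without overlap. Its log2 fold changes were 0.90 ± 0.18 and 0.99 ± 0.15 (adjusted p = 0.00292 and 0.000123). Without Scr13 untreated replicate 1 or Scr16 doxorubicin replicate 1 they were 1.09 and 1.09, and those of COL4A2 were 0.95 and 0.83. The exact permutation p of a single gene was 0.0286 in each of these cases, the smallest that 4 libraries against 4 can give. Per exon length COL4A1 was between 0.441 and 0.888 times COL4A2, with group means of 0.661 ± 0.0744 in the untreated libraries labelled KO, 0.655 ± 0.156 in untreated Scr, 0.783 ± 0.0787 after doxorubicin in those labelled KO and 0.683 ± 0.137 in Scr. Reads where the gene models overlap cannot be assigned with certainty, since the use of strand in counting is not given in the sources used here.

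Among the other collagens 2 genes were called in each genotype comparison. COL9A2, a chain of the type IX collagen that coats fibrils, was the only collagen gene called lower in either genotype comparison, at 1.76 and 2.77 in KO11, 1.34 and 5.11 in KO28, 7.87 and 9.38 in Scr13, and 8.65 and 6.53 in Scr16 without treatment (log2 fold change -1.37 ± 0.26, adjusted p = 0.00246). The groups did not overlap. After doxorubicin it was at 8.83 and 6.68 in KO11, 5.89 and 7.71 in KO28, 25.4 and 24.1 in Scr13, and 5.13 and 7.27 in Scr16. Here the Scr clones parted, with both Scr13 libraries above 24 and both Scr16 libraries within or below the range of the libraries labelled KO, and the difference was not called (adjusted p = 0.240). Without Scr16 replicate 1 it was called lower (log2 fold change -1.10, adjusted p = 0.0135).

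COL6A3, which encodes the largest chain of the main type VI trimer, was at 1.27 and 4.28 in KO11, 5.23 and 1.97 in KO28, 1.42 and 0.345 in Scr13, and 0.491 and 0.114 in Scr16 without treatment. Scr13 replicate 1 was above KO11 replicate 1, and the call (log2 fold change 1.34 ± 0.34, adjusted p = 0.0203) was lost without KO11 replicate 2, KO28 replicate 1, Scr13 replicate 2, Scr16 replicate 1 or Scr16 replicate 2 (adjusted p = 0.0826, 0.104, 0.0600, 0.0510 and 0.0796). After doxorubicin it was at 2.37 and 2.77 in KO11 and 1.77 and 0.359 in KO28 in the libraries labelled KO, from 114 reads, and at 0 in all 4 Scr libraries. The mean of 1.82 was 35.5 times a floor of 3 reads over the Scr group (0.0512 normalized CPM). That floor covers counting error only and not the spread between replicates, and COL6A3 did not pass the filter there. It was far below its partners, at most 0.0108 times COL6A2 per length.

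COL13A1, a collagen that spans the membrane, was at 4.61 and 3.46 in KO11, 3.07 and 2.21 in KO28, 0.594 and 0 in Scr13, and 0 and 0 in Scr16 after doxorubicin. It passed the filter through the libraries labelled KO alone, so a difference was built into its being tested (log2 fold change 1.92 ± 0.30, adjusted p = 0.000159). Without treatment it did not exceed 0.723 in any library. COL7A1, which forms the anchoring fibrils beneath epithelia, was at 1.16 and 2.53 in KO11, 3.35 and 3.36 in KO28, 3.86 and 2.02 in Scr13, and 2.70 and 2.16 in Scr16 without treatment, where the groups overlapped, and at 9.85 and 7.24 in KO11, 6.74 and 6.64 in KO28, 2.61 and 3.03 in Scr13, and 5.51 and 2.79 in Scr16 after doxorubicin, where they did not. The difference after doxorubicin was 0.97 ± 0.24 on the log2 scale (adjusted p = 0.0125, and 0.0787 without KO11 replicate 1).

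COL6A2, COL6A1 and COL18A1, among the 5 most abundant collagen genes, were not called between genotypes. COL6A2 was 121 ± 12.6 normalized CPM in the untreated libraries labelled KO and 114 ± 5.71 in Scr (95% interval of the log2 difference -0.09 to 0.26), and COL6A1 105 ± 10.1 and 90.3 ± 9.16 (0.03 to 0.40, limma adjusted p = 0.231). COL18A1, whose C-terminal fragment is endostatin, was 64.5 ± 5.45 and 66.9 ± 10.4 (-0.26 to 0.18). All 3 are on chromosome 21, which also carries TRPM2.

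**Figure D3:**
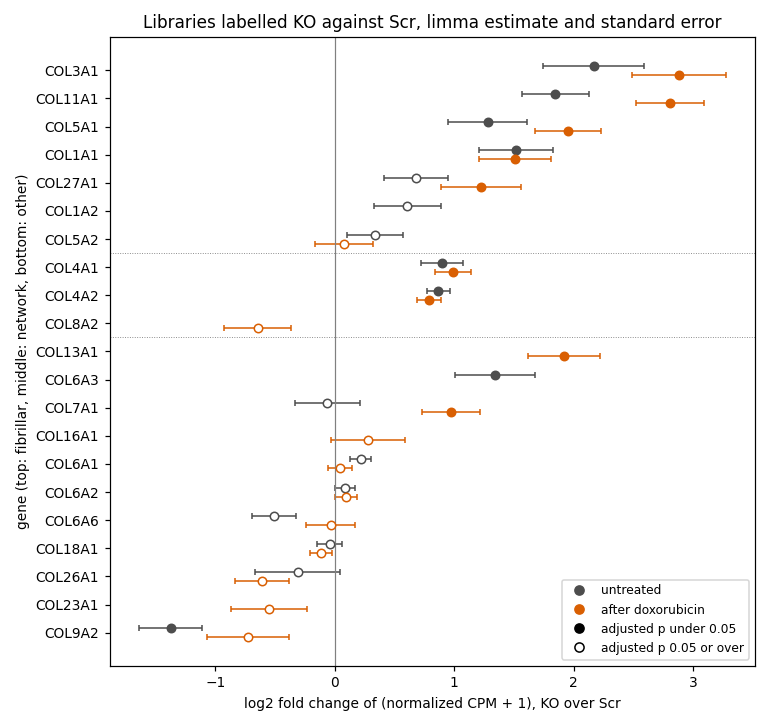
Log2 fold change of (normalized CPM + 1) between the libraries labelled KO and Scr (horizontal axis) for each collagen gene tested, without treatment and after doxorubicin, with standard errors and filled points at an adjusted p under 0.05. Fibrillar genes and the type IV genes lie to the right of 0, while COL6A1, COL6A2 and COL18A1 lie near it.

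Markers of another cell state also differed between genotypes. Of 14 mesenchymal markers 12 were in the tables, 10 were tested without treatment, and 6 were higher and 1 lower in the libraries labelled KO, beside 4.84% of all genes called. VIM, the most abundant of them and the intermediate filament of mesenchymal cells, was at 368 and 322 in KO11, 429.7 and 355 in KO28, 302 and 87.3 in Scr13, and 146 and 218 in Scr16. The summed level of the list was 962 and 906 in KO11, 1124 and 1104 in KO28, 942 and 591 in Scr13, and 698 and 735 in Scr16 without treatment and 1063 and 883 in KO11, 1178 and 999 in KO28, 645 and 601 in Scr13, and 783 and 763 in Scr16 after doxorubicin. Scr13 untreated replicate 1 was again the highest Scr library. Without VIM the sums overlapped between genotypes in both treatments. Untreated, Scr13 replicate 1 was at 640, above KO11 at 594 and 583. After doxorubicin Scr16 replicate 2 was at 563 and KO11 replicate 2 at 562. No other Scr library reached those labelled KO in the same treatment. FN1, which encodes fibronectin, and LUM and DCN, small proteoglycans that bind collagen fibrils, were higher by 1.55, 2.45 and 1.40 on the log2 scale (adjusted p = 0.000965, 8.71e-06 and 0.00469). DCN passed the filter through the libraries labelled KO alone, as did LUM once Scr13 replicate 1 was left out. VIM was higher by 1.10 (adjusted p = 0.00406). Without Scr13 replicate 1 the differences were 1.38 for VIM, 1.91 for FN1, 2.77 for LUM and 1.46 for DCN (adjusted p = 2.09e-05, 1.31e-06, 2.63e-07 and 0.0101). That library was the highest untreated Scr library for each of these genes, so the widening was fixed by leaving it out. TWIST1, a mesenchymal transcription factor gene, was lower, at -0.53 (0.000110). After doxorubicin 5 of 10 markers were higher and 1 lower, beside 8.69% of all genes called, and DCN and LUM were tested through the libraries labelled KO alone. VIM and FN1 were then higher by 1.23 and 2.14 (adjusted p = 3.96e-05 and 8.77e-06), and by 1.42 and 2.49 without Scr16 replicate 1 (adjusted p = 3.21e-07 and 1.07e-08). PRRX1 and POSTN were not analysed here, and no marker of the list in the tables was at 0 in all libraries. Schwann cell markers summed to between 6.94 and 21.6 normalized CPM over 5 genes, led by NGFR, which was the gene called lower of 3 tested without treatment (-0.80, adjusted p = 0.0261, and 0.143 without Scr13 replicate 1), with 0 called after doxorubicin by limma (0 at an unadjusted p under 0.05). Of 11 adrenergic markers tested, 2 were called in each treatment, and 1 without treatment when Scr13 replicate 1 was left out. The part of these markers in the collagen differences was not tested.

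The second question was how the collagens responded to doxorubicin within each genotype, with the clone as a term. In the Scr clones 17 collagen genes were tested, 4 rose and 2 fell, while over all 14378 genes 12.2% were called, 6.92% as higher and 5.24% as lower. In the clones labelled KO 20 were tested, 10 rose and 2 fell, while over all 14513 genes 19.6% were called, 11.4% as higher and 8.21% as lower. The median log2 change of the collagens was 0.13 in Scr and 0.39 in the clones labelled KO, beside -0.01 and 0.02 over all genes. By class, 0 of 5 fibrillar genes were called in Scr by limma (0 at an unadjusted p under 0.05), and 2 rose and 1 fell of 7 in the clones labelled KO. COL6A1, COL6A2, COL18A1, COL8A2 and COL4A2 were called in both genotypes. With a clone left out, and fewer libraries, the calls lost in Scr (limma adjusted p) were COL4A2 (0.290), COL8A2 (0.491), COL18A1 (0.100) and COL6A6 (0.304) without Scr13, and COL4A2 (0.105), COL18A1 (0.125) and COL6A6 (0.214) without Scr16. In the clones labelled KO they were COL9A2 (0.141), COL7A1 (0.224), COL6A1 (0.0655), COL26A1 (0.297), COL1A2 (0.638) and COL8A2 (0.138) without KO11, and COL11A1 (0.0568), COL26A1 (0.145), COL8A2 (0.149), COL18A1 (0.0510) and COL27A1 (0.160) without KO28. With no filter on low values, COL6A1 and COL6A2 stayed called in Scr. In the clones labelled KO the calls of COL9A2, COL11A1, COL6A1, COL26A1, COL1A2 and COL27A1 were lost with no filter.

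COL6A2 (chr21:46098097-46132849, plus strand) was the most abundant collagen gene per length and rose in all 4 clones. Its untreated values were 112 and 109 in KO11, 133 and 132 in KO28, 116 and 119 in Scr13, and 106 and 115 in Scr16, and after doxorubicin they were 214 and 184 in KO11, 212 and 242 in KO28, 225 and 217 in Scr13, and 186 and 170.3 in Scr16. All 8 treated libraries were above all 8 untreated libraries. The log2 changes were 0.79 ± 0.0735 in Scr (adjusted p = 8.44e-07) and 0.81 ± 0.0750 in the clones labelled KO (adjusted p = 8.14e-09). The bases before its RefSeq start (GRCh38.p14, chr21:46097992-46098111, plus strand) are shown because the gene rose in both genotypes, with TATAAA and GGGCGG in capitals.
COL6A2: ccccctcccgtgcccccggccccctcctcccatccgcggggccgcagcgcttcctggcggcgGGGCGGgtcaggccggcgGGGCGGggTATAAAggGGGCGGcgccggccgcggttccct

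In the 250 bases before the start, TATAAA was found on either strand in 5 of the 23 collagen genes with a RefSeq promoter entry and in 11.13% of 27305 promoters of the same length. CCAAT was found in 6 of 23 and 33.04%, and GGGCGG in 15 of 23 and 42.31%. Each motif was searched on both strands, and matches of different motifs were counted without regard to overlap. These are descriptions of letters and not of bound sites.

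COL6A1, the partner chain beside it on chromosome 21, was at 101 and 98.2 in KO11, 119.97 and 101 in KO28, 93.5 and 87.6 in Scr13, and 79.2 and 101 in Scr16 without treatment and 155 and 109.5 in KO11, 145 and 141 in KO28, 139 and 117 in Scr13, and 152 and 124 in Scr16 after doxorubicin. It rose by 0.55 ± 0.0910 on the log2 scale in Scr and by 0.38 ± 0.0906 in the clones labelled KO (adjusted p = 0.000481 and 0.00310), where KO11 replicate 2 after doxorubicin stayed below KO28 replicate 1 without treatment. Per length COL6A1 was 0.875 ± 0.0663 times COL6A2 in the untreated libraries labelled KO and 0.652 ± 0.0696 after doxorubicin, and 0.798 ± 0.0653 and 0.682 ± 0.124 in Scr. COL18A1 was at 71.7 and 59.5 in KO11, 65.7 and 61.3 in KO28, 76.2 and 57.9 in Scr13, and 57.9 and 75.5 in Scr16 and after doxorubicin at 87.9 and 77.8 in KO11, 85.5 and 89.8 in KO28, 82.5 and 93.3 in Scr13, and 106 and 88.9 in Scr16. It rose in both genotypes (0.47 ± 0.10 and 0.40 ± 0.0879, adjusted p = 0.00609 and 0.00155).

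COL4A2 went the other way. From the values given above, COL4A2 fell by 0.42 ± 0.10 on the log2 scale in Scr (adjusted p = 0.0113) and by 0.50 ± 0.0898 in the clones labelled KO (adjusted p = 0.000212), with no overlap between treatments in either genotype. In Scr the call was lost without Scr13 untreated replicate 1 (adjusted p = 0.0674). COL4A1 was at a log2 difference of -0.35 ± 0.20 and -0.25 ± 0.11 and was not called (adjusted p = 0.277 and 0.105). COL8A2, a chain of the hexagonal network of type VIII, was at 0.661 and 0.181 in KO11, 0.0671 and 0.729 in KO28, 1.26 and 0.633 in Scr13, and 0.982 and 0.909 in Scr16 without treatment and at 1.54 and 1.39 in KO11, 1.83 and 2.57 in KO28, 5.70 and 3.66 in Scr13, and 2.66 and 2.21 in Scr16 after it. The treated libraries were the higher ones in every clone, with log2 changes of 1.18 ± 0.28 in Scr and 1.02 ± 0.30 in the clones labelled KO (adjusted p = 0.00959 and 0.0158). In the clones labelled KO it passed the filter through treated libraries alone. Its calls were lost without Scr13 untreated replicate 2 or Scr13 doxorubicin replicate 1 (adjusted p = 0.0579 and 0.0552), and in the clones labelled KO without KO11 untreated replicate 2, KO28 untreated replicate 1 or KO28 doxorubicin replicate 2 (0.0535, 0.0553 and 0.0588).

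**Figure D4:**
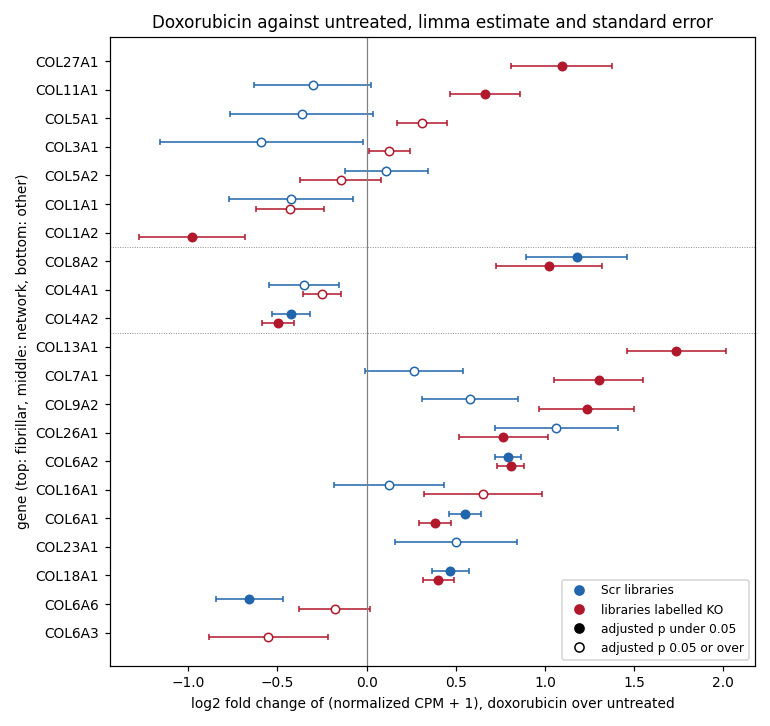
Log2 fold change of (normalized CPM + 1) between doxorubicin and untreated libraries (horizontal axis) for each collagen gene tested, in Scr and in the clones labelled KO, with standard errors and filled points at an adjusted p under 0.05. COL6A2, COL6A1, COL18A1 and COL8A2 rose and COL4A2 fell in both genotypes.

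Other changes were called in the clones labelled KO and not in Scr. COL13A1 rose by 1.74 ± 0.28 from untreated values of 0.276 and 0.723 in KO11 and 0.0671 and 0.146 in KO28 (adjusted p = 4.61e-05), having passed the filter through the treated libraries alone. COL7A1 rose by 1.30 ± 0.25 (adjusted p = 0.000390), with no overlap. COL9A2 rose by 1.23 ± 0.27 (adjusted p = 0.00137), again with no overlap. Without Scr16 doxorubicin replicate 1, or without the clone Scr16, COL9A2 was also called in Scr. COL27A1 rose by 1.09 ± 0.28 from 1.32 and 1.57 in KO11 and 1.14 and 1.90 in KO28 (adjusted p = 0.00662, and 0.0593 without KO11 doxorubicin replicate 1). In Scr, where COL27A1 was at 0.590 and 0.864 in Scr13 and 0.245 and 0.511 in Scr16 without treatment, it did not pass the filter.

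The remaining calls were smaller or less stable, and COL1A2, COL26A1 and COL6A6 were named after their values were seen. COL11A1 rose by 0.66 ± 0.20 in the clones labelled KO (adjusted p = 0.0174), where KO28 untreated replicate 2 was low. That call was lost without KO28 untreated replicate 2, at a log2 change of 0.37, and without KO28 doxorubicin replicate 1 or KO11 untreated replicate 2 (adjusted p = 0.0912, 0.107 and 0.0532), and by DESeq2 (0.212). COL1A2 fell by 0.98 ± 0.30, from 2.22 ± 0.678 to 0.658 ± 0.450 normalized CPM (SD, n = 4, limma adjusted p = 0.0206), with the call lost without any 1 of the 4 KO11 libraries (adjusted p between 0.0579 and 0.110). COL26A1 rose by 0.77 ± 0.25 in the clones labelled KO (adjusted p = 0.0302) and differed by 1.06 ± 0.35 in Scr, which was not called (adjusted p = 0.0509). The former call was lost without KO11 untreated replicate 2, KO28 untreated replicate 2 or any 1 of the 4 treated libraries (adjusted p between 0.0601 and 0.124). In Scr COL26A1 was called with the replicate block and with a filter of at least 10 reads in every library. It was also called there without Scr16 untreated replicate 2, Scr16 doxorubicin replicate 2 or the clone Scr16. COL6A6, a further type VI chain, fell by 0.66 ± 0.19 in Scr (adjusted p = 0.0273), a call lost without Scr13 untreated replicate 2, Scr16 untreated replicate 1, Scr16 untreated replicate 2 or Scr13 doxorubicin replicate 1 (adjusted p = 0.159, 0.0538, 0.0807 and 0.0761).

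**Figure D5:**
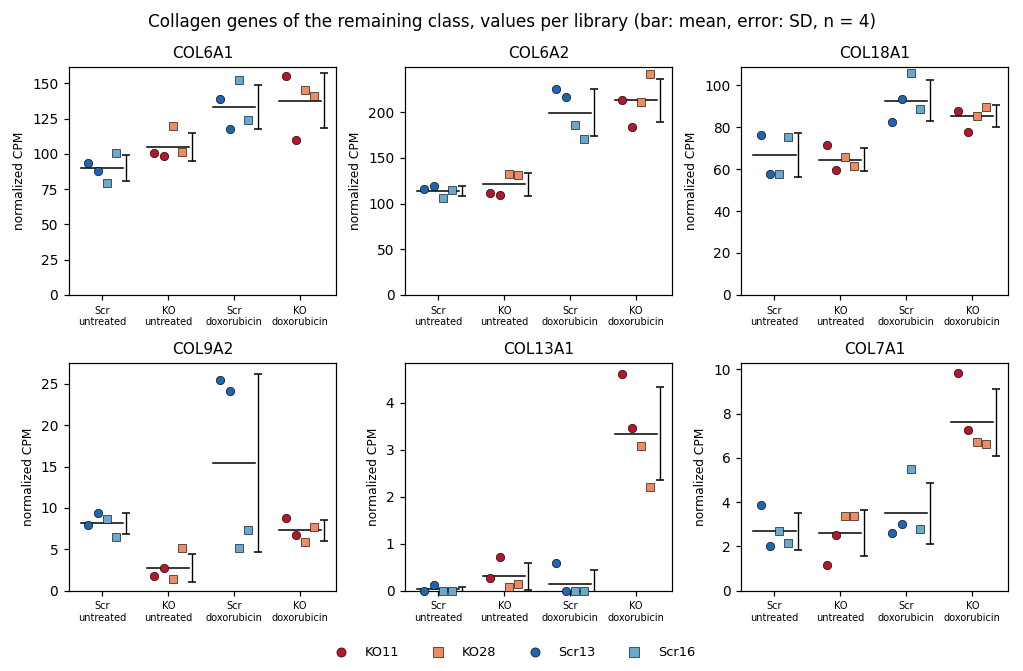
Normalized CPM (linear axes from 0) of 6 genes of the other class by library and clone, with group means (lines) and SD (error bars, n = 4). COL6A1, COL6A2 and COL18A1 were higher after doxorubicin in both genotypes, COL13A1 and COL7A1 were highest in the treated libraries labelled KO, and COL9A2 was above 24 in both treated Scr13 libraries.

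Whether the doxorubicin response differed between genotypes was tested as an interaction over all 16 libraries. Of 22 collagen genes tested, 0 were called by limma, 0 by edgeR and 0 by DESeq2, and 3 had an unadjusted p under 0.05 by limma. Over all 15325 genes 0.0326% were called. COL13A1, which passed the filter through the treated libraries labelled KO alone, had a difference of 1.61 on the log2 scale (95% interval 0.82 to 2.39, adjusted p = 0.117). COL7A1 was at 1.04 (0.27 to 1.80, adjusted p = 0.439) and COL11A1 at 0.97 (0.13 to 1.81, adjusted p = 0.519). For COL6A2 the interval was -0.20 to 0.23 and for COL3A1 -0.61 to 2.05. The genes called in one genotype alone were therefore not shown to differ in their response. Without Scr13 untreated replicate 1 and Scr16 doxorubicin replicate 1 together, 0 of 21 collagen genes were called.

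Clones of the same genotype were compared with treatment as a term. Between KO28 and KO11, 0 of 20 collagen genes were called by limma, 0 by edgeR and 0 by DESeq2 (3 at an unadjusted p under 0.05), while 0.138% of all genes were. COL1A1 was at 21.3 in KO28 and 12.5 in KO11 without treatment (mean of 2 libraries) and at 13.4 and 11.01 after doxorubicin, with a log2 difference of 0.53 (95% interval 0.14 to 0.92, adjusted p = 0.334). For COL3A1 the interval was -0.05 to 0.41. FN1 was the 1 of 11 mesenchymal markers called between these clones, higher in KO28 by 0.59 (adjusted p = 0.0430). Between Scr16 and Scr13, 0 of 17 were called by limma, 0 by edgeR and 0 by DESeq2 (2 at an unadjusted p under 0.05), and 0.0348% of all genes were. COL9A2 had the largest difference in absolute value among those 2, at -1.01 (-1.57 to -0.45, adjusted p = 0.583), with means of 24.8 in Scr13 and 6.20 in Scr16 after doxorubicin. The interval for COL3A1 was -0.56 to 1.83, so that the Scr clones could not be separated for this gene given the spread between their replicates.

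Genes that make, export, process, bind or break down collagen were read from the same fits, in which 4.84% of all genes were called without treatment and 8.69% after doxorubicin. Among 17 tested genes of synthesis and folding, 1 was higher in the libraries labelled KO in each treatment, a share near that of all genes. This was SPARC, a collagen-binding glycoprotein gene, by 0.38 and 0.46 on the log2 scale (adjusted p = 0.00292 and 0.00109). SERPINH1, the collagen-specific chaperone gene, was not called in either treatment (adjusted p = 0.132 and 0.219). The median log2 difference of this list was 0.03 in both treatments, beside 1.28 and 1.73 for the fibrillar genes tested. Of 10 export genes 0 were called without treatment by limma (1 at an unadjusted p under 0.05) and 1 was higher after doxorubicin. Among 10 genes of propeptide removal and crosslinking, ADAMTS3, a procollagen N-propeptidase gene, was higher in both treatments (1.19 and 1.40, adjusted p = 0.00126 and 0.0371), and BMP1 and LOXL2 were higher after doxorubicin. Without Scr13 untreated replicate 1 or Scr16 doxorubicin replicate 1 the differences of ADAMTS3 were 1.25 and 2.03 (adjusted p = 0.00295 and 7.53e-06), the latter with ADAMTS3 passing the filter through the libraries labelled KO alone, and LOXL2 was also called without treatment (0.86, adjusted p = 0.0329).

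Collagen receptors moved in both directions. ITGA1, an integrin chain gene, was lower in the libraries labelled KO in both treatments, at 136 and 138 in KO11, 129 and 119 in KO28, 225 and 203 in Scr13, and 196 and 195 in Scr16 without treatment (-0.64, adjusted p = 8.62e-06), and so was DDR2, a fibrillar collagen receptor kinase gene (-0.30, adjusted p = 0.00592). These were the 2 called of 6 receptors tested. Without Scr13 replicate 1 ITGA11 and MRC2 were also called, both higher (adjusted p = 0.0473 and 0.0463), ITGA11 having passed the filter through the libraries labelled KO alone. After doxorubicin 3 were higher and 2 lower of 6, including ITGA11, which passed the filter through the libraries labelled KO alone. ITGA2 was at 51.1 and 41.6 in KO11, 51.1 and 40.2 in KO28, 18.1 and 15.7 in Scr13, and 23.1 and 19.6 in Scr16 (1.23, adjusted p = 1.75e-06). Of 4 breakdown genes tested, 0 were called without treatment by limma (0 at an unadjusted p under 0.05), and TIMP1, an inhibitor of matrix metalloproteinases, was higher after doxorubicin (0.53, adjusted p = 0.0278). Of 10 basement membrane partners of type IV collagen, 1 was lower without treatment (NID1, which links laminin to type IV collagen, -0.44, adjusted p = 0.00273), and 2 were higher and 1 lower after doxorubicin. Without Scr16 replicate 1 the call of AGRN, 1 of the 2, was lost (adjusted p = 0.0710). Of these lists, the counts of 0 of 4 and 1 of 10 without treatment are near the 4.84% of all genes.

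Basement membrane partners also responded to doxorubicin. In Scr 5 of 9 rose and 0 fell, and in the clones labelled KO 6 of 10 rose and 0 fell, with median log2 changes of 0.51 and 0.46, beside 12.2% and 19.6% of all genes called and medians of -0.01 and 0.02. AGRN, a heparan sulfate proteoglycan gene, rose by 1.06 ± 0.0818 and 1.19 ± 0.0847 (adjusted p = 8.36e-08 and 4.09e-11), and the laminin chain genes LAMB2 (0.79 and 0.84) and LAMA5 (0.64 and 0.75) rose in both. COL4A2, which shares the basement membrane with these proteins, was lower in both genotypes, as given above. In synthesis and folding 2 rose and 2 fell of 17 in either genotype, with P4HA2, a prolyl hydroxylase subunit gene, up by 0.73 and 0.94 (adjusted p = 0.000622 and 3.07e-06) and PPIB, a prolyl isomerase gene, down at -0.53 and -0.37 (adjusted p = 0.000319 and 0.00143). Of 10 export genes, 0 rose and 1 fell in Scr and 3 rose and 1 fell in the clones labelled KO. Among the 10 processing and crosslinking genes, 1 rose and 1 fell in Scr and 0 rose and 1 fell in the clones labelled KO, with PCOLCE, an enhancer of procollagen cleavage, lower in both (-0.53 and -0.54). MRC2, an endocytic collagen receptor gene, rose in both genotypes (0.85 and 0.40). It was the 1 receptor called of 5 in Scr, and in the clones labelled KO 2 of 6 rose. Breakdown genes numbered 4 tested, with 0 called in Scr by limma (2 at an unadjusted p under 0.05) and 1 higher in the clones labelled KO. The mesenchymal markers, whose sums are given above, included 1 higher and 1 lower of 8 in Scr and 1 higher and 2 lower of 11 in the clones labelled KO, the adrenergic markers 3 and 1 of 11 and 3 and 3 of 11, and NGFR rose in both as the 1 Schwann marker called of 3.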

How the data were processed

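Poly(A) RNA was sequenced in 16 libraries (NEXTflex directional kit). The submitters' processing notes name bcl2fastq, HISAT2 2.1.0, HTSeq, edgeR and GRCh38. The values per library are a signal the authors deposited as normalized CPM, reads scaled by library size and a normalization factor. Whole reads were recovered for 100% of values (tolerance 0.001 reads). The authors' deposited fold changes and p-values were not used. Symbols from GENCODE 29 were matched for 95.86% of identifiers, and promoters are from RefSeq (GRCh38.p14).

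Tests were made with limma 3.58.1 (R 4.3.3; edgeR 4.0.16 and DESeq2 1.42.0 as alternatives). Normalized CPM was put on the scale log2(value + 1), which understates changes of low genes, with a mean-variance trend and Benjamini-Hochberg adjustment over all genes tested (1 normalized CPM or more in 4 or more libraries). With libraries left out, the filter required as many libraries as the smaller group. The normalization factors multiplied to 1.0293 and not to 1 over the 16 libraries, so treatment comparisons used recovered reads normalized together (TMM). A depth of 10481177 to 25086085 reads gives a floor of 3 reads, for counting error only, at 0.118 to 0.285 normalized CPM. Alternatives varied the pseudocount, the filter, the scaling, the test, the clone term and the replicate block, and left out each library and each clone. The tests were checked on simulated counts. Values in every library are given for collagen genes called between genotypes, for collagen genes called at an absolute log2 change of at least 1 elsewhere, and for the leading gene of each class per length. The members and lists were chosen with earlier results of these data known. The values of 1 marker gene are not reported here.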

Additional observations from a re-analysis of the deposited data

Results flagged for a closer look

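In 4 of 72 groups of 4 libraries tested, the highest or lowest library lay far from the others by Dixon's criterion. Chance gives about 1 in 20. COL6A1 was at 119.97 normalized CPM in KO28 untreated replicate 1, against 98.2 to 101 in the other untreated libraries labelled KO. COL27A1 was at 1.76 in KO11 doxorubicin replicate 2, against 5.20 to 5.82 in the other treated libraries labelled KO. COL13A1 was at 0.594 in Scr13 doxorubicin replicate 1 and at 0 in the other treated Scr libraries. COL7A1 was at 5.51 in Scr16 doxorubicin replicate 1, against 2.61 to 3.03 in the others. Without that library the log2 fold change of COL7A1 between genotypes was 1.16 (limma adjusted p = 0.00114).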

How the results depend on the processing

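Over 734 repeats of the called log2 fold changes in which the gene was tested, 635 kept the call, 99 lost it and 0 changed sign. Repeats in which the gene did not pass the filter are not counted. With at least 10 reads in every library, COL6A3 was so dropped between genotypes without treatment, and COL27A1 and COL13A1 after doxorubicin. For doxorubicin in the clones labelled KO, COL1A2, COL8A2 and COL13A1 were dropped. With no filter on low values (25358 to 25505 genes tested in the comparisons named here), the collagen genes called fell to 2 between genotypes without treatment, 2 for doxorubicin in Scr and 6 in the clones labelled KO. Leaving out a clone gave 3 (without KO28) and 5 (without Scr16) between genotypes without treatment, 2 for doxorubicin in Scr (without Scr13), and 6 (without KO11) and 7 (without KO28) for doxorubicin in the clones labelled KO, with fewer libraries in each. Leaving out each library in turn gave 6 to 8 calls between genotypes without treatment, 7 to 10 after doxorubicin, 4 to 7 for doxorubicin in Scr, 8 to 12 in the clones labelled KO, and 0 for the interaction and between clones. Every count of 10 after doxorubicin included COL6A3, which was at 0 in all treated Scr libraries. With a library left out, COL6A3 passed the lowered filter through the libraries labelled KO alone. Over all genes, replicate numbers did not pair the samples (correlations of replicate deviations between clones -0.10 to 0.12), although COL3A1 and COL5A1 were higher in replicate 1 of all 8 pairs. With the replicate block, 8 and 9 collagen genes were called between genotypes, 7 and 13 for doxorubicin in Scr and in the clones labelled KO, and 0 otherwise, and COL3A1 and COL5A1 stayed called between genotypes in both treatments. The deposited normalization and the joint removal of Scr13 untreated replicate 1 and Scr16 doxorubicin replicate 1 were chosen after seeing the data. The former gave 6 and 12 calls for doxorubicin, and the latter 5 in Scr, where COL4A2 was lost (adjusted p = 0.0779). No scaling moved the median of all genes by more than 0.1 on the log2 scale. On recovered reads edgeR's quasi-likelihood test called 642 and 1186 genes between genotypes without treatment and after doxorubicin, 1671 and 2694 for doxorubicin in Scr and in the clones labelled KO, 9 for the interaction, and 10 and 2 between the KO and the Scr clones. DESeq2 called 53, 43 and 1 in the last 3, where limma called 5, 20 and 5. Among all genes, the calls by limma between genotypes without treatment went from 695 to 368 with no filter, 361 without Scr13 and 369 without Scr16, and those after doxorubicin from 1266 to 575 without KO11 and 640 without KO28. For doxorubicin they went from 1748 to 808 (no filter), 223 (without Scr13), 716 (without Scr16) and 817 (without both libraries that stand apart) in Scr, and from 2847 to 894 without KO11 in the clones labelled KO. For the interaction they lay between 0 and 24 by limma, and with no filter 0 genes were called between clones. Apart from the smaller number of libraries, the cause of these shifts was not tested.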
